A study of Mus musculus with 12 samples.

Results

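The matrix metalloprotease cluster of mouse chromosome 9 holds 10 metalloprotease genes, Mmp13, Mmp12, Mmp1b, Mmp3, Mmp1a, Mmp10, Mmp8, Mmp27, Mmp20 and Mmp7, and each has a row in the table of 26061 genes. The genes were taken by name, after earlier results of these data had shown Mmp12 and Mmp1b far higher in knockdown than in control cells. The knockdown against control values of the 10 genes are therefore given as a description, with no test. RNA was sequenced from E14 mouse embryonic stem cells (129/Ola background) in 4 groups of 3 libraries. All cells carried a lentiviral pLKO.1 vector and were selected with puromycin. Control cells received the non-targeting hairpin shScr and knockdown cells received shSetdb1, each in serum medium with LIF (called primed in the labels) or in serum-free 2i medium with LIF and the inhibitors PD0325901 and CHIR99021 (called naive). There was 1 hairpin against Setdb1 and no rescue among the groups, and all libraries came from 1 cell line. The labels do not say that replicates were separate cultures, so p-values measure the spread between these libraries, which may be technical.

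Matrix metalloproteases are zinc-dependent endopeptidases that are made as inactive proenzymes, cut the proteins of the extracellular matrix once activated, and are held in check by tissue inhibitors of metalloproteases. The cluster holds genes of the collagenase group (Mmp1a, Mmp1b, Mmp8 and Mmp13) and stromelysins (Mmp3 and Mmp10). It also holds the macrophage elastase Mmp12, the matrilysin Mmp7, the enamelysin Mmp20 of developing teeth, and Mmp27. In the adult these genes are typical of macrophages, neutrophils, stromal cells and epithelia under repair rather than of pluripotent cells, and several are switched on through AP-1 elements close to a TATA box. Setdb1 is a methyltransferase of histone H3 lysine 9 that silences endogenous retroviruses and a set of genes in embryonic stem cells.

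Libraries held between 4821181 and 15509401 gene reads, and 2i knockdown replicate 3 was the shallowest. Values are normalised reads, that is reads divided by the library's size factor, unless a log2 scale is named. Setdb1 itself, which checks the labels, was at 2261 ± 687 normalised reads in serum controls and 402 ± 20.6 in serum knockdown cells (SD, n = 3), and at 2862 ± 687 and 596 ± 249 in 2i (limma adjusted p = 0.00219 and 0.00173). All 10 embryonic stem cell markers on the list used here had reads in every group, and their summed level lay between 41380 and 81410 normalised reads in the 12 libraries. Tdgf1 and Dppa5a had the most. None of the 10 had a limma adjusted p under 0.05 after knockdown in either medium. Over all genes tested, 0.649% did in serum and 1.27% in 2i. In serum 3 of the 10 were lower after knockdown without overlap. The share of all genes lower without overlap was not computed, so whether 3 of 10 is unusual cannot be told. Zfp42 was at 11370 ± 2190 and 6786 ± 1008, Esrrb at 3172 ± 632 and 1905 ± 67.7, and Klf2 at 678 ± 88.3 and 408 ± 145 (SD, n = 3).

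In the RefSeq order on GRCm38.p6, Mmp12 and Mmp1b are direct neighbours near one end of the cluster. Mmp13 lies on the outer side of Mmp12, and Mmp3 and Mmp1a follow Mmp1b. Mmp1b is the only member on the minus strand, so that Mmp12 and Mmp1b run towards each other and their 3′ ends are adjacent. The windows of 250 bases before the RefSeq starts were searched for the AP-1 element TGANTCA and for TATAAA, on both strands, and the 2 motifs cannot overlap as written. Of 32851 such windows in the mouse table, 6.75% held TGANTCA, 12.4% held TATAAA and 1.22% held both. Among the cluster genes, 8 of 10 held TGANTCA and 7 of 10 held both motifs in 1 window, including 5 of the 7 genes other than Mmp12, Mmp1b and Mmp1a. Mmp12 and Mmp7 have 2 windows each. Counted by window, as the shares above are, 8 of 12 held TGANTCA and 7 of 12 held both. Neither motif was found in the windows of Mmp8, Mmp27, the first start of Mmp12 or the second start of Mmp7. The windows of the genes that the comparison turns on are printed 5′ to 3′ on the gene's strand, with these motifs in capitals, and each run stops before the first base that GENCODE annotates as exon. They are the second start of Mmp12 (chr9:7347124-7347373, plus strand), Mmp1b (chr9:7388048-7388276, minus strand), Mmp1a (chr9:7463891-7464140, plus strand), and the neighbours Mmp3 (chr9:7445572-7445821, plus strand) and Mmp13 (chr9:7272264-7272513, plus strand), all RefSeq on GRCm38.p6.
Mmp12: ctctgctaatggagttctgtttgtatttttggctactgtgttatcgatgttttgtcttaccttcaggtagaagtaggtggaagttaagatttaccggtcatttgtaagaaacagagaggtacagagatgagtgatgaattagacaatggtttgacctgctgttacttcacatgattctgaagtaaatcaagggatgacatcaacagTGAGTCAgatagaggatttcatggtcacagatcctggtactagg
Mmp1b: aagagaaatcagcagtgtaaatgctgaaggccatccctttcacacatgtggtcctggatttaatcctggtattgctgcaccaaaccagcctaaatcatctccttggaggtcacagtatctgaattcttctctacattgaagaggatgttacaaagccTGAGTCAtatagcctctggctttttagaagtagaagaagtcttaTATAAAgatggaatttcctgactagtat
Mmp1a: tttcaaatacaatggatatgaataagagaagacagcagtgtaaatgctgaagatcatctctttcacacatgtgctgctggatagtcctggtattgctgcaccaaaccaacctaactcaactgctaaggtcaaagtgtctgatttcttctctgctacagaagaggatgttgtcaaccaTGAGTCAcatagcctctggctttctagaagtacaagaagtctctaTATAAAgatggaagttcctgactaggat
Mmp3: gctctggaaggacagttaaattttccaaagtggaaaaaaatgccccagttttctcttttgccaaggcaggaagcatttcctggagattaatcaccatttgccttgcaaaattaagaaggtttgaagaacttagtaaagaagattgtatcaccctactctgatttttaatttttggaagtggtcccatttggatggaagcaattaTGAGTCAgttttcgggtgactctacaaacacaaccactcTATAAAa
Mmp13: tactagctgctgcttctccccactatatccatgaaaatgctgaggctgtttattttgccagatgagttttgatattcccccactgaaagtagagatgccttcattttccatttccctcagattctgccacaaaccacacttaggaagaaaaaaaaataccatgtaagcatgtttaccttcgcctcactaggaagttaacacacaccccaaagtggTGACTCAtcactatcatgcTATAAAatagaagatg
The Mmp1a and Mmp1b windows were 87.1% identical over 225 aligned bases. In both, the AP-1 element stands before the TATAAA, and Mmp3 and Mmp13, which had next to no reads, hold the same pair in the same order. TATAAA is not in the printed Mmp12 window, but its first letter is base 5 counted from that RefSeq start, 28 bases before the next start annotated by GENCODE, which 3 Mmp12 transcripts share. These matches describe letters in the windows and say nothing of binding.

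Mmp12, the macrophage elastase, had no read in any of the 3 serum control libraries. In serum knockdown replicates 1, 2 and 3 it had 550, 456 and 1203 normalised reads. The mean went from 0 to 736 ± 407 (SD, n = 3), at least 732-fold higher when the controls are set to 3 reads over the group. In 2i the controls had 3.61, 2.76 and 0 normalised reads and the knockdown libraries 1524, 970 and 3274. These means of 2.12 ± 1.89 and 1923 ± 1203 (SD, n = 3) differ 906-fold. The groups did not overlap in either medium, and replicate 3 was the highest knockdown library in both. Dropping knockdown replicate 3 brought the 2i fold to 587 and dropping control replicate 1 brought it to 1394, while the serum limit was 456 without control replicate 2, since 3 reads are then spread over fewer libraries. Summed over the libraries, 6641 Mmp12 reads came from knockdown cells and 9 from controls. In bulk RNA, more cells with a transcript and more transcripts per cell cannot be told apart.

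Mmp1b, 1 of a pair of mouse genes related to human MMP1, had no read in any of the 6 control libraries. It had 177, 230 and 195 normalised reads in the serum knockdown libraries and 225, 250 and 708 in the 2i knockdown libraries. The serum libraries lay close together, at 201 ± 26.8, and the 2i libraries spread more widely, at 394 ± 272 (SD, n = 3), because replicate 3 stood above the other two. Against a control limit of 3 reads over the group, Mmp1b was at least 199-fold higher in serum and at least 485-fold higher in 2i. The 2i limit was 292 without knockdown replicate 3, 302.6 without control replicate 1 and 294 without control replicate 2, and the serum limit was 124 without control replicate 2.

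Mmp1a, the other gene of that pair, also had no control read and was present in all knockdown libraries, at a much lower level. It had 15.2, 27.8 and 8.63 normalised reads in serum knockdown cells and 14.6, 8.12 and 38.7 in 2i knockdown cells. The means were 17.2 ± 9.74 and 20.5 ± 16.1 (SD, n = 3), at least 17.1-fold and 25.2-fold above the control limit, and they rest on 103 reads in all, against 1504 for Mmp1b. The Mmp1a and Mmp1b transcripts are 90.9% identical over 1446 aligned bases, with an identical run of up to 134 bases. How the authors counted reads that fit both genes is not given in the sources used here, so the Mmp1a level is uncertain. The corresponding run shared by Mmp12 and Mmp1b is 18 bases, at 62.4% identity.

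The other members stayed at or close to 0. The collagenases Mmp8 and Mmp13, the matrilysin Mmp7 and Mmp27 had no read in any of the 12 libraries. A count of 0 allows up to 0.0757 RPM (reads per 1000000 gene reads) in serum knockdown cells and 0.0999 in 2i knockdown cells, taken as 3 reads over the group and covering counting error only. The stromelysin Mmp3, which follows Mmp1b in gene order, had 3 reads in serum knockdown replicate 2 and none elsewhere. Its close relative Mmp10 had 6 reads in that library, 6 in 2i knockdown replicate 1 and none in the other 10. The enamelysin Mmp20 had 4 reads in serum control replicate 2, 3 in serum knockdown replicate 2 and 3 in 2i knockdown replicate 2. No member outside Mmp12, Mmp1b and Mmp1a had reads in all libraries of any group, and together they gave at most 1.40% of a knockdown library's cluster reads (12 of 859, 95% Wilson interval 0.801 to 2.43%).

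**Figure D1:**
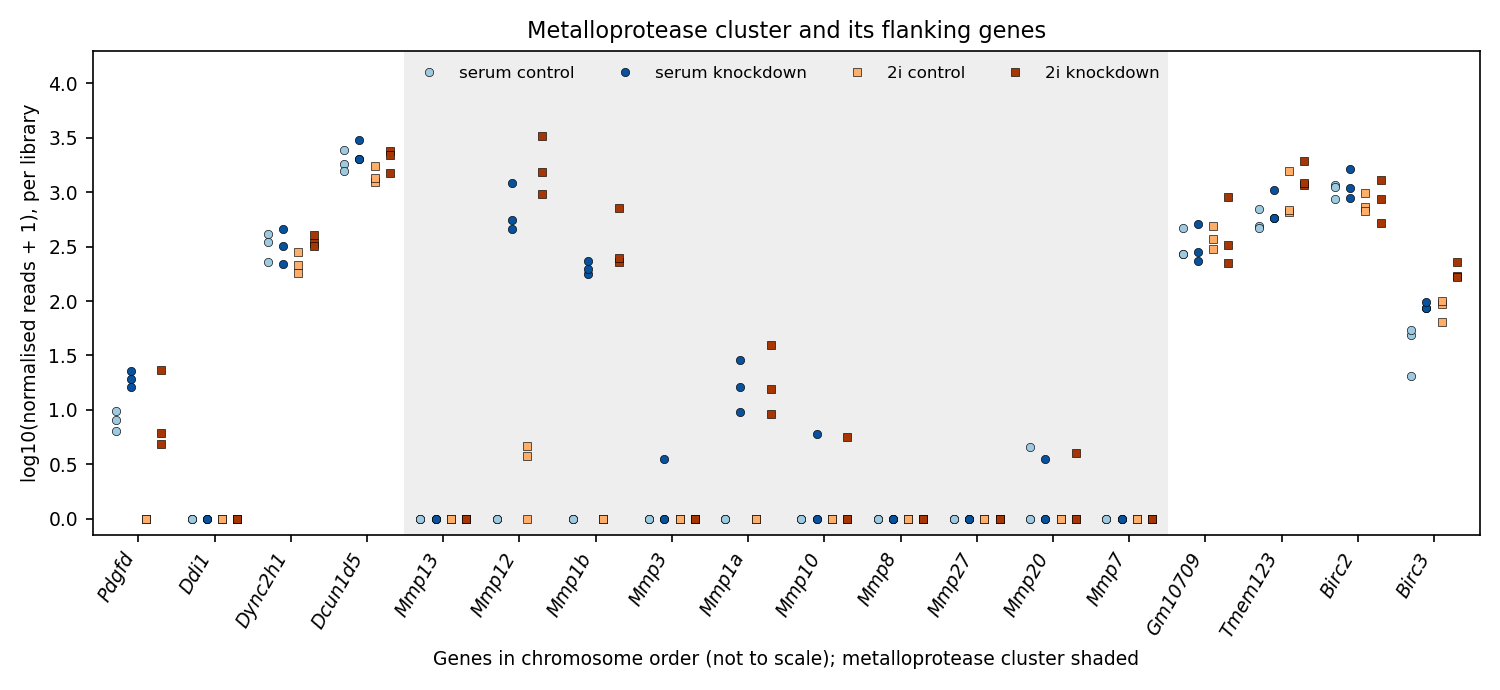
Normalised reads in each of the 12 libraries, as log10(normalised reads + 1), for the 10 cluster genes (shaded) and the 4 nearest RefSeq genes on each side, in chromosome order and not to scale. Each point is 1 library. Mmp12, Mmp1b and Mmp1a have points well above 0 in the knockdown libraries, while Mmp13, Mmp8, Mmp27 and Mmp7 lie at 0 in all 12.

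**Figure D2:**
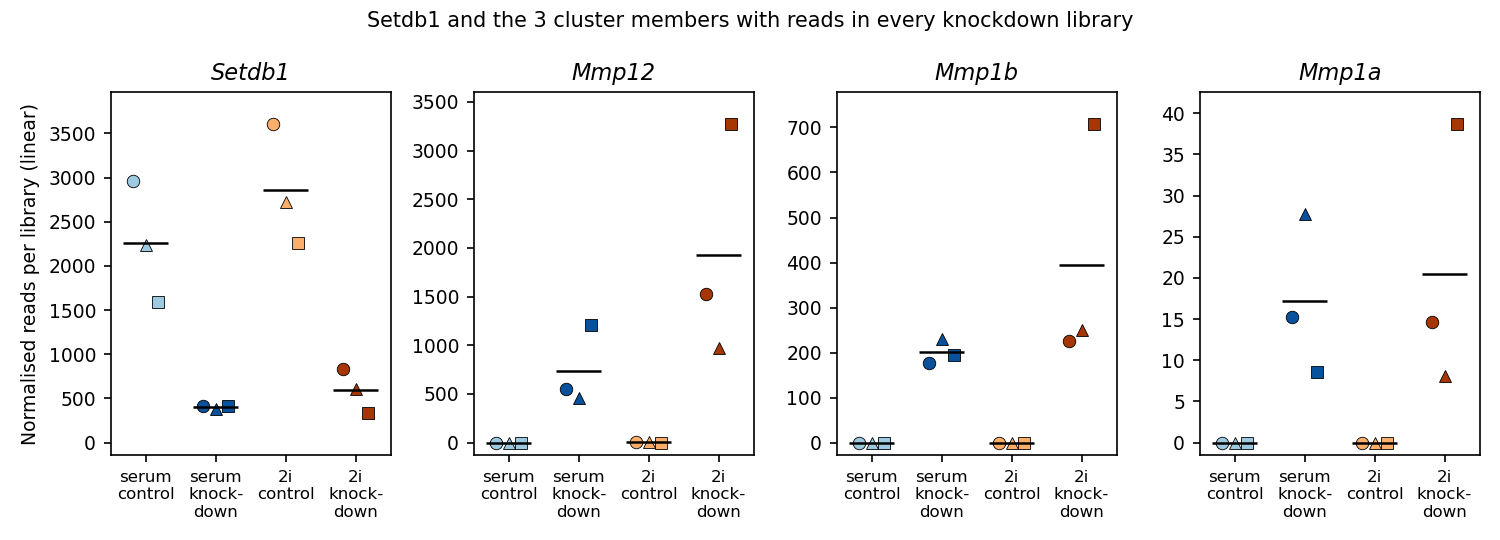
Normalised reads (linear axis, each panel with its own scale) of Setdb1, Mmp12, Mmp1b and Mmp1a by group. Each point is 1 library (circle, triangle and square for replicates 1, 2 and 3) and the line is the group mean. In 2i knockdown cells the square lies highest for all 3 metalloproteases and lowest for Setdb1.

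The libraries of both groups were set apart, with the knockdown higher, for 3 of the 10 members in serum and the same 3 in 2i, namely Mmp12, Mmp1b and Mmp1a. The same held for 6.12% of the 14487 genes tested in serum and 6.34% in 2i. Those 3 were also the members that passed the filter on low values, and they passed it through the knockdown libraries alone. Of 8492 genes with no read in the serum controls, 2.04% had a read in each serum knockdown library. In 2i the share was 1.38% of 9143 genes. Of the 9 members without a serum control read, 3 had reads in each knockdown library and 4 had none in any. Of the 9 without a 2i control read, 2 had reads in each and 5 had none. By mean knockdown level Mmp12 and Mmp1b ranked 3rd and 4th among the 8492 genes in serum and Mmp1a 28th. In 2i Mmp1b ranked 2nd of 9143 and Mmp1a 39th, and Mmp12 is not in that ranking because of its control reads. The members were chosen on this contrast, so these ranks describe them and support nothing.

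Whether the medium changed the level of the members in knockdown cells is a question the choice of genes did not settle. For Mmp12, 2i knockdown cells lay 1.28 above serum knockdown cells on the deposited log2 scale (SE 0.43, limma adjusted p = 0.118), and the ranges overlapped, since 2i replicate 2 (970) was below serum replicate 3 (1203). Without serum knockdown replicate 3 the difference was 1.68 with an adjusted p of 0.047, and without 2i knockdown replicate 3 it was 0.81 with an adjusted p of 0.462. For Mmp1b the difference was 0.69 (SE 0.37, adjusted p = 0.342), and for Mmp1a it was 0.07 (SE 0.31, adjusted p = 0.933). The difference for Mmp1b was 0.21 without 2i knockdown replicate 3 and 0.96 without 2i knockdown replicate 1. None of the 3 passed in this comparison, in which 3.75% of genes did. The fit takes 1 spread per gene from all 4 groups, and the controls of these 3 genes lay at or near the floor. The SEs here therefore tend to understate the spread between knockdown libraries, and these p values can be too low. In control cells Mmp12, which had reads in 2i controls 1 and 2 only, differed by 0.36 between media (limma adjusted p = 0.742), against 3.62% of genes that passed there. That p cannot show whether control cells differ between media. Mmp12 passed the filter through its knockdown libraries alone, and its spread in the fit comes mostly from them.

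The size of the knockdown effect in 2i minus that in serum was tested on the deposited log2 scale. It was 0.92 for Mmp12 (SE 0.61), 0.69 for Mmp1b (SE 0.52) and 0.07 for Mmp1a, each with a limma adjusted p of 1. Mmp1b and Mmp1a had no control read, so for them this value is the difference between media in knockdown cells and not a second result. All these genes passed the filter through their knockdown libraries alone. No gene passed the test of the difference between the changes (0% of 14487). At an unadjusted p under 0.05 there were 404 of the 14487 genes, fewer than that threshold would pass with no effect in any gene. With the replicate as a block there were 882, more than it would pass, and again 0 were called. These counts depend on the fit and do not settle whether responses to the knockdown differ between media. With limma voom on the recovered reads, 0 were called as well. The sign for Mmp12 was not stable, because with limma voom the difference was -0.73.

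Scaled to library depth, the 10 genes together took 64.9, 65.9 and 126.9 RPM in the serum knockdown libraries and 166.3, 106.7 and 301.6 in the 2i knockdown libraries. The control libraries had between 0 and 0.322. Mmp12 gave most of these reads, from 63.0% (95% Wilson interval 59.7 to 66.1%) in serum replicate 2 to 86.2% (84.7 to 87.5%) in 2i replicate 1. The Mmp1b share of their joint reads was 24.4% (21.8 to 27.2%), 33.5% (30.4 to 36.9%) and 13.9% (12.2 to 15.8%) in serum replicates 1 to 3. It was 12.9% (11.6 to 14.3%), 20.5% (18.3 to 22.9%) and 17.8% (15.9 to 19.8%) in 2i. The means were 23.9% ± 9.82 in serum and 17.0% ± 3.86 in 2i (SD, n = 3), and the ranges overlapped (exact permutation test, two-sided p = 0.3). The Mmp1a share of the joint Mmp1a and Mmp1b reads was 7.64% ± 3.28 in serum and 4.81% ± 1.51 in 2i (SD, n = 3, exact permutation test, two-sided p = 0.3). With 3 libraries against 3 the exact test cannot go below p = 0.10, so it cannot show whether either share differs between media. Reads without molecular identifiers are not independent molecules, so the intervals cover counting error only.

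**Figure D3:**
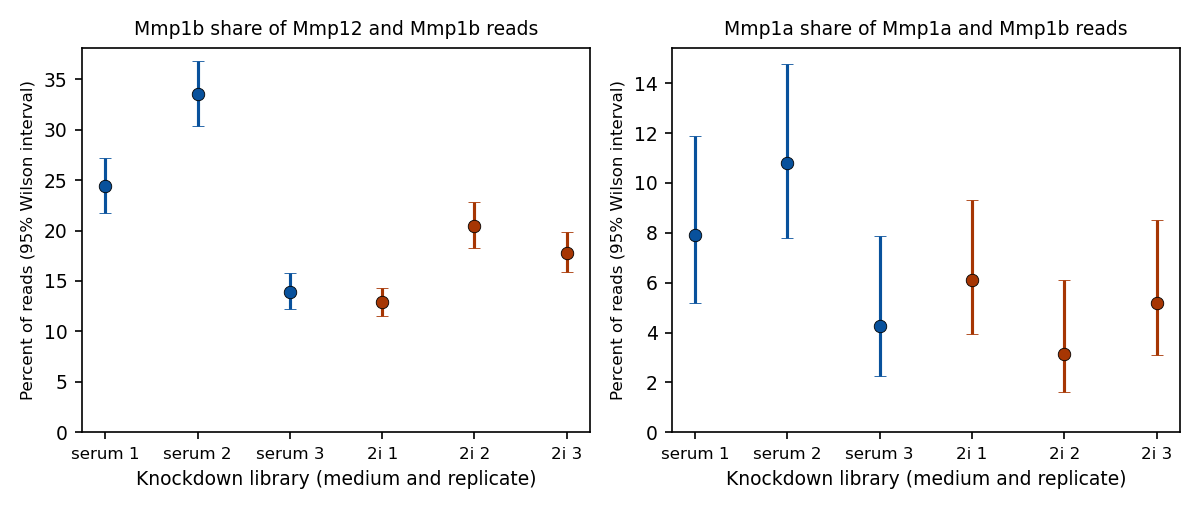
Share of Mmp1b among Mmp12 and Mmp1b reads (left) and of Mmp1a among Mmp1a and Mmp1b reads (right), in percent, for each of the 6 knockdown libraries (serum in blue, 2i in brown). Bars are 95% Wilson intervals from the reads of that library. In the left panel serum replicates 1 to 3 lie at 24.4, 33.5 and 13.9%, with intervals that do not meet.

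Per kilobase of the longest GENCODE transcript, Mmp12 had 204 ± 113 normalised reads and Mmp1b 138 ± 18.5 in serum knockdown cells, and 533 ± 334 and 272 ± 188 in 2i knockdown cells (SD, n = 3). The ratio of Mmp12 to Mmp1b per kilobase was 1.25, 0.796 and 2.48 in the serum libraries and 2.72, 1.56 and 1.86 in the 2i libraries. Mmp12 was thus the higher of the pair in 5 of 6 libraries, and in serum the order was not the same in all 3. Mmp1a lay below both in every library, at 8.51 ± 4.82 and 10.1 ± 7.97. The transcript that GENCODE lists may not be the one made in these cells. In addition, 1 of 7 annotated Mmp12 transcripts runs into Mmp1b on the opposite strand and shares 157 exon bases with it, 10.8% of the Mmp1b exon bases. The libraries were directional, per the labels, but whether the counting used strand is not given in the sources used here, so Mmp12 and Mmp1b reads from that stretch cannot be told apart.

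None of the genes on either side of the cluster was called after knockdown. Of the 4 nearest RefSeq genes on each side, 7 of 8 were tested and none was called after knockdown in either medium, where 0.649% of genes were called in serum and 1.27% in 2i. Their median change was 0.27 in serum and 0.59 in 2i on the deposited log2 scale, against -0.0015 and 0.0121 over all genes tested. On the Mmp13 side, the NEDD8 ligase factor Dcun1d5 was at 1932 ± 438 normalised reads in serum controls and 2348 ± 566 in serum knockdown cells (SD, n = 3), and at 1434 ± 260 and 2014 ± 455 in 2i. The ciliary dynein Dync2h1 was at 329 ± 95.1 and 333 ± 123 in serum, with overlap, and at 224 ± 52.4 and 356 ± 44.8 in 2i, without overlap (SD, n = 3, 1.59-fold, limma adjusted p = 0.768). Ddi1 had no read in any library. The growth factor Pdgfd had few reads, with 7.05 ± 1.67 in serum controls and 18.4 ± 3.35 in serum knockdown cells (SD, n = 3), and these groups did not overlap. In 2i Pdgfd had no read in the 3 controls and 3.84, 5.08 and 22.1 in the knockdown libraries, at least 12.7-fold higher by the control limit (log2 change 0.89, limma adjusted p = 0.286). Pdgfd thus also had reads in each 2i knockdown library and none in the controls. On the Mmp7 side, the control and knockdown libraries of Gm10709 and of Tmem123 overlapped in both media. The inhibitor of apoptosis Birc2 on that side was at 1051 ± 170 and 1203 ± 389 in serum, and at 796 ± 168 and 896 ± 393 in 2i (SD, n = 3). Its neighbour Birc3 was at 40.1 ± 18.3 and 88.7 ± 6.23 in serum, and at 85.1 ± 19.0 and 188 ± 34.6 in 2i (SD, n = 3). The Birc3 groups did not overlap in either medium, a 2.21-fold difference in both, and the limma adjusted p values were 0.772 and 0.35. In all, 2 of the 7 tested flanking genes were higher without overlap in serum (Pdgfd and Birc3) and 3 in 2i (these and Dync2h1). Over all genes tested, the shares were 6.12% in serum and 6.34% in 2i.

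Metalloproteases outside the cluster were not called either. Of 13 genes, 11 were tested and 0 passed in serum or in 2i, where 0.649% and 1.27% of all genes tested were called. At these shares a list this short would seldom hold a call, so the count does not set these genes apart. Their median changes were -0.003 and 0.048 on the deposited log2 scale. Mmp11 and the gelatinase Mmp2 had the most reads. Mmp11 was at 154 ± 46.7 normalised reads in serum controls and 121 ± 24.6 in serum knockdown cells, and Mmp2 at 91.5 ± 120.0 and 182 ± 91.5 (SD, n = 3). In 2i Mmp11 was at 100.5 ± 66.7 and 135 ± 59.7, and Mmp2 at 11.9 ± 11.1 and 46.6 ± 23.1, without overlap (SD, n = 3, 3.91-fold, limma adjusted p = 0.779). Over all genes tested, 6.12% were higher without overlap in serum and 6.34% in 2i. Of the 11 genes, 1 was higher without overlap in serum and 3 in 2i. The gelatinase Mmp9 was among them in both media, at 1.19 ± 2.05 and 12.2 ± 11.4 in serum (10.3-fold, adjusted p = 0.772, 4 control reads) and at 0.711 ± 0.722 and 5.16 ± 1.17 in 2i (SD, n = 3, adjusted p = 0.83). Mmp23 was at 6.12 ± 6.94 and 45.9 ± 44.2 in 2i (SD, n = 3, 7.50-fold, adjusted p = 0.434). In knockdown cells 3.75% of all genes tested were called between media. Of the 11, 2 were called, both lower in 2i than in serum. They were the membrane-anchored Mmp14, which can activate the Mmp2 proenzyme, and Mmp25, which is also membrane-anchored. Mmp14 had 134, 99.4 and 79.6 normalised reads in the serum knockdown libraries and 46.9, 0 and 8.30 in the 2i ones (log2 change -1.76, limma adjusted p = 0.033). Mmp25 had 32.7, 72.4 and 7.67 in serum and no read in 2i (-1.62, adjusted p = 0.0227). The Mmp14 call was lost without serum knockdown replicates 1 or 2 or 2i knockdown replicates 2 or 3 (adjusted p 0.105 to 0.134), and the Mmp25 call without serum knockdown replicate 1 or 2i knockdown replicates 2 or 3 (0.0689 to 0.0734).

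**Figure D4:**
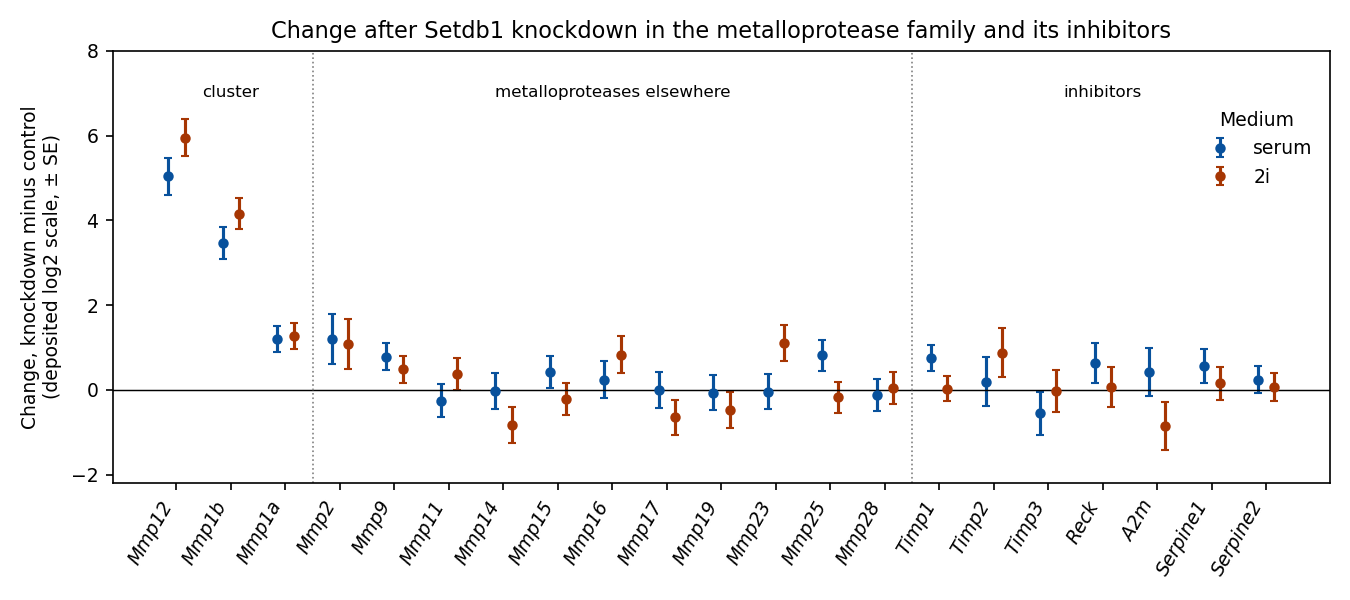
Change from control to Setdb1 knockdown on the deposited log2 scale, with bars of 1 SE from limma, in serum (blue) and 2i (brown), for the 3 cluster genes that passed the filter, 11 metalloproteases elsewhere in the genome and 7 inhibitors. The cluster genes were chosen on this change, and no gene of the other lists was called in either medium.

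Among the inhibitors, 7 of 8 were tested and 0 were called after knockdown in either medium. Over all genes tested, 0.649% were called in serum and 1.27% in 2i. Median changes of the inhibitors were 0.42 in serum and 0.06 in 2i. Serpine2 and the broad protease trap A2m had the most reads, with Serpine2 at 306 ± 82.2 normalised reads in serum controls and 376 ± 133 in serum knockdown cells (SD, n = 3). The metalloprotease inhibitor Timp1 was at 62.1 ± 7.82 and 133 ± 43.3 in serum (SD, n = 3), without overlap and with a limma adjusted p of 0.78. Timp3 was the only list member called between media, at 104 ± 35.7 in serum controls and 8.45 ± 7.40 in 2i controls (SD, n = 3, log2 change -1.98, adjusted p = 0.0402), and this call was lost without any 1 of those 6 libraries (adjusted p 0.0675 to 0.195).

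Proteases that can activate metalloprotease proenzymes were called in neither medium after knockdown, with 9 of 14 tested and median changes of 0.17 and 0.27. Of all genes tested, 0.649% were called in serum and 1.27% in 2i. For the proprotein convertase Pcsk6 in serum the change was -1.24 with an adjusted p of 0.269, which became 0.0397 with the replicate as a block and 0.049 without serum control replicate 2. The membrane protease St14 and Pcsk6 had the most reads. Plg, the plasminogen precursor, had 1 read in the 12 libraries. In 2i relative to serum knockdown cells Pcsk6 rose (log2 change 1.48, limma adjusted p = 0.0348) and the membrane protease Hpn fell (-1.47, adjusted p = 0.047). The Pcsk6 call was lost without serum knockdown replicates 1 or 2 or 2i knockdown replicates 2 or 3 (adjusted p 0.0609 to 0.192), and the Hpn call without any 1 of these libraries except 2i knockdown replicate 1 (0.0744 to 0.191).

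Of 20 substrates and matrix genes, 14 were tested and none was called in serum, against 0.649% of all genes tested. The median change in serum was -0.11 on the deposited log2 scale. In 2i 1 of the 14 was called, against 1.27% of all genes tested, and the median was 0.06. That gene was Lum, a small collagen-binding proteoglycan, with 0, 2.76 and 0 normalised reads in 2i controls and 735.5, 101.5 and 542 in 2i knockdown cells (log2 change 4.03, limma adjusted p = 0.000236). Serum knockdown libraries had 6.85, 5.05 and 2.88, and Lum was called between media in knockdown cells (3.53, adjusted p = 0.0013). Its change in 2i minus that in serum was 3.36 with an adjusted p of 1. Elastin (Eln), a textbook substrate of Mmp12, was under the filter, with 14 reads in serum libraries and none in 2i. The matrix genes with the most reads were Spp1 and fibronectin (Fn1). Fn1 was at 4067 ± 865 and 4538 ± 1507 normalised reads in serum control and knockdown cells (SD, n = 3). The laminin chain Lamb1 fell in 2i relative to serum, by 3.02 on the log2 scale in knockdown cells (adjusted p = 0.00411) and by 2.25 in controls (0.0204), and the collagen Col2a1 fell by 1.47 in controls (0.0259). In controls the Lamb1 call was lost without serum control replicates 1 or 2 or 2i control replicates 2 or 3 (0.0612 to 0.0969), and the Col2a1 call without any 1 library except serum control replicate 3 (0.0607 to 0.108). Without 2i knockdown replicate 2 the collagen Col5a2 was also called in 2i (2.67, adjusted p = 0.00628).

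Genes of AP-1, ETS and related factors that are known to act on metalloprotease promoters were called in neither medium after knockdown. Of 15 genes 13 were tested, with medians of 0.009 in serum and -0.36 in 2i. The shares called over all genes tested were 0.649% in serum and 1.27% in 2i. Etv5 and Jund had the most reads, and Jund was at 246.5 ± 186 normalised reads in serum controls and 271 ± 48.5 in serum knockdown cells (SD, n = 3). The AP-1 subunit Jun was at 65.4 ± 21.8 and 64.4 ± 25.9 (SD, n = 3). Etv4 fell in 2i relative to serum, by 3.21 in knockdown cells (limma adjusted p = 0.0013) and by 1.73 in controls (0.0407), and the call in controls was lost without any 1 library except 2i control replicate 3 (0.0822 to 0.135). After knockdown in 2i Etv4 was at 3.22 ± 4.31 normalised reads against 71.8 ± 56.0 in controls (SD, n = 3), 22.3-fold lower without overlap. The log2 change was -1.73 with an adjusted p of 0.0828, which was 0.0499 with quantile normalisation and 0.0154 (change -2.26) without 2i control replicate 1.

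Because Mmp12 marks macrophages and Mmp8 neutrophils in the adult, marker lists of other cell types were read beside the cluster. The macrophage list of 10 genes summed to between 184 and 275 normalised reads in serum controls and between 295 and 505 in serum knockdown cells. In 2i the sums were between 77.2 and 129 in controls and between 114 and 256 in knockdown cells. Mrc1 had the most reads of the list, at 131 ± 38.2 and 305 ± 114 in serum (SD, n = 3, limma adjusted p = 1) and at 17.8 ± 28.4 and 115 ± 70.5 in 2i (6.45-fold, adjusted p = 0.0842). Itgam was at 4.76 ± 3.62 and 18.4 ± 9.65 in serum (SD, n = 3, 3.86-fold, adjusted p = 1) and at 1.64 ± 1.45 and 11.2 ± 4.91 in 2i (6.82-fold, adjusted p = 0.637). Neither gene's groups overlapped in either medium. Cd68 was at 96.1 ± 20.1 and 63.2 ± 10.4 in serum and at 86.9 ± 37.0 and 64.6 ± 40.0 in 2i (SD, n = 3). The defining macrophage gene Lyz2 had no read in any library, Emr1 (the older symbol of Adgre1) had 8 reads, all in 2i knockdown cells, and Csf1r had 5 reads in serum knockdown and 11 in 2i knockdown libraries. Of the macrophage markers 0 of 3 tested were called after knockdown in either medium, against 0.649% of all genes tested in serum and 1.27% in 2i. Mrc1 in 2i (log2 change 1.88) was called, however, without 2i control replicate 1 (2.47, adjusted p = 0.0145). Between media Mrc1 fell in 2i relative to serum controls (-2.10, adjusted p = 0.0251), a call that was lost without serum control replicates 1 or 2 or 2i control replicates 2 or 3 (0.081 to 0.133).

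On the neutrophil list 7 of 10 genes, among them Mpo, S100a8 and S100a9, had no read in any library. That list summed to between 4.83 and 116 normalised reads in the 12 libraries, with the most from Cxcr2 (mean 30.85) and Csf3r (mean 3.03). The fibroblast list summed to between 43.4 and 61.4 normalised reads in 2i controls and between 172 and 846 in 2i knockdown cells. Most of that rise was Lum, at 0.92 ± 1.59 and 460 ± 325 (SD, n = 3). Of 4 genes tested, Lum and the collagen Col6a3 (log2 change 1.67, limma adjusted p = 0.0475) were called in 2i, against 1.27% of all genes. The means of the other 2 were lower in 2i knockdown cells, Pdgfrb at 30.35 ± 8.11 and 19.8 ± 13.9 and Thy1 at 16.1 ± 9.62 and 14.5 ± 16.4 (SD, n = 3). Twist2 was at 0 in 2i knockdown cells. The Col6a3 call was lost without any 1 of those 6 libraries (adjusted p 0.076 to 0.22). In serum the sums were between 48.9 and 231 in controls and between 85.1 and 138 in knockdown cells. The trophoblast genes Prl3d1, Prl2c2, Elf5, Plac1 and Tpbpa were at 0 throughout. The other 5 of the 10 had reads, and the list summed to between 206 and 766 normalised reads in the 12 libraries. Tcfap2c (mean 485.8) and Ascl2 (mean 15.55) had the most, and 0 of the 2 tested were called after knockdown in either medium. Over all genes tested, the shares called were 0.649% in serum and 1.27% in 2i. The part of Mrc1, Itgam and the fibroblast genes in the cluster's reads was not tested.

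Across the 12 libraries, the genes most like Mmp12 on the deposited log2 scale were Akr1c21 (Pearson r = 0.989), Stk31 (0.988), Serpina3k (0.985), Serpina3m (0.983) and Clec2g (0.980), out of 14484 genes. For Mmp1b they were Akr1c21 (0.990), Clec2g (0.988), Stk31 (0.984), Serpina3m (0.981) and Rbmy1a1 (0.981). The r between Mmp12 and Mmp1b was 0.987, and Mmp1a gave 0.930 with Mmp12 and 0.968 with Mmp1b. All these values share the same libraries, of which 6 are knockdown and 6 control, so the r mostly restates that split, and no p is given. Akr1c21, an aldo-keto reductase, went from 3.26 ± 5.64 to 368 ± 131 normalised reads in serum, and Serpina3m, a serine protease inhibitor, from 1.78 ± 3.08 to 923 ± 234 (SD, n = 3). Stk31, a kinase gene of the germline, differed in being present in controls, at 363 ± 79.9 against 3665 ± 1482 in serum knockdown cells.

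Among 1097 repeat families the closest to Mmp12 were IAPEz-int (r = 0.948), IAP-d-int (0.945) and RLTR13D6 (0.941). The closest to Mmp1b were RLTR1B (0.961), RLTR13D6 (0.958) and RLTR10E (0.943). All belong to the retrotransposons with long terminal repeats. IAPEz-int, the internal part of intracisternal A particles, was at 13390 ± 843 normalised reads in serum controls and 50230 ± 19700 in serum knockdown cells, and at 11220 ± 3152 and 191500 ± 20820 in 2i (SD, n = 3). RLTR1B was at 1443 ± 171 and 14480 ± 4999 in serum, and at 1132 ± 611 and 12610 ± 4715 in 2i (SD, n = 3). The repeat table was normalised on its own, so its levels are not set beside those of the genes, and the files do not place repeat copies in the cluster.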

How the data were processed

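The 2 deposited tables, of genes and of repeat families, hold variance-stabilised log2 values that the authors made with DESeq2. Per the submitters' processing notes, reads had passed through Trim Galore 0.3.3 and TopHat2 2.0.9, with mm9 as the genome build. Libraries were rRNA-depleted and directional, per the labels' protocols. For the counting tool, the annotation, strand use and reads that fit several genes, details were not given in the sources used here.

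The transformation was inverted, which gave whole reads for 100% of values (within 0.01) and each library's size factor. Groups were compared with limma 3.58.1 (R 4.3.3) on the deposited log2 values, fitting the 4 group means jointly (12 libraries, 8 residual degrees of freedom) with a mean-variance trend. A gene was tested when its mean over all libraries was at least 0.5 above the table's floor of 4.4522 (14487 genes), and called at a Benjamini-Hochberg adjusted p under 0.05. On this scale genes with few reads show compressed log2 changes, so folds are ratios of mean normalised reads. Against a group without reads, a fold is a limit computed with 3 reads over the group. The fits were tested on simulated data.

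In serum, control and knockdown libraries of the same replicate number deviated together from their group means (Pearson r = 0.582, 0.234 and 0.510), so the numbers pair these libraries. With the replicate as a block, serum called 171 genes (149 higher) in place of 94 (87 higher). In 2i this held for replicates 1 and 3 (0.456 and 0.524) but not for replicate 2 (0.057), so the numbers do not pair all 2i libraries. The p values given come from the fit without the block unless the block is named.

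The members and the gene lists were chosen with earlier results of these data known. The named genes are the members, Setdb1, the flanking genes, and from each list those called and the 2 with the highest mean, and any further gene named was chosen after its values were seen. Emr1 and Tcfap2c stand for Adgre1 and Tfap2c. Gene order and promoter windows are from RefSeq (GRCm38.p6), whose windows matched all 10 members, and transcripts are from GENCODE on GRCm38. The files use mm9, so coordinates are given for the RefSeq windows alone, on GRCm38.p6. Alignments used Biopython 1.88.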

Additional observations from a re-analysis of the deposited data

How the results depend on the processing

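In place of 94 genes called in serum and 184 in 2i, 62 and 102 were called with limma voom scaled to total gene reads, a setting chosen after seeing the data, 114 in 2i with limma voom on recovered reads, and 171 and 321 with the replicate block. Between media, 543 genes (311 higher, 232 lower) were called in knockdown cells and 524 in controls. With limma voom on recovered reads 240 (179 higher, 61 lower) were called in knockdown cells, and with voom scaled to total gene reads 212 and 314. With the replicate block 1583 and 1351 were called, but same-numbered knockdown libraries of the 2 media share only a number (r = 0.497, 0.005 and 0.439), and not every library was closest to its own number. In that fit the difference between media for Mmp12 kept its value of 1.28 and had an adjusted p of 0.0418. Its spread also takes in the controls at or near the floor, so this p can be too low as well. The block changed no other call of Mmp12, Mmp1b or Mmp1a between media or between the changes.

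The Mmp12 change in 2i minus that in serum was 0.92 on the deposited scale, -0.73 with limma voom on recovered reads and -0.82 with voom scaled to total gene reads. The difference between media in knockdown cells, 1 part of this value, was 1.28 on the deposited scale and 1.32 with limma voom on recovered reads. The other part, that in controls, was 0.36 and 2.05. It rests on 9 Mmp12 reads in 2i controls and 0 in serum controls. Why the scales differ was not tested. Leaving out 1 library at a time, counts ran from 37 to 69 in serum, 99 to 247 in 2i, 0 to 1 for the difference between the changes, 144 to 1514 between media in knockdown cells and 171 to 461 in controls. The Mmp12 difference between media ran from 0.81 to 1.68 and that of Mmp1b from 0.21 to 0.96, while the difference of changes ran from 0.45 to 1.31 for Mmp12. The Mmp1b serum limit ran from 124 to 211, and lies lower without a control library because 3 reads are then spread over fewer libraries. Over the same settings the fold or limit ran from 456 to 871 for Mmp12 in serum, 587 to 1394 for Mmp12 in 2i and 292 to 588.5 for Mmp1b in 2i. Filters on low values and quantile normalisation moved none of the counts by over 1.5 times. Of the 14 list calls named, 4 held under every alternative run, namely those of Lum in 2i and between media, and of Etv4 and Lamb1 between media in knockdown cells. With the replicate block, Mrc1 (log2 change 1.88, adjusted p = 0.00638) and Etv4 (-1.73, adjusted p = 0.0446) were also called after knockdown in 2i. There the numbers do not pair all libraries. With a group left at 2 libraries, the fit takes its spread from all groups. Depth limits the silent genes to the RPM given with them.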
